A study of Mus musculus with 10 samples.

Results

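Transcripts of 8 voltage-gated potassium channel genes, the EAG-type genes Kcnh1, Kcnh2, Kcnh3, Kcnh4, Kcnh5 and Kcnh7 and the M-type genes Kcnq3 and Kcnq5, were compared between R6/2 and control striatum. The genes were taken by name, so 8 of the 47632 gene rows of the table are described. R6/2 mice, a model of Huntington's disease, were hemizygous for a transgene made of the start of human HTT, with a long CAG repeat and driven by the human HTT promoter, so it is not limited to 1 cell type. The controls were isogenic wild-type mice, and the age at harvest was 11 weeks in both groups. Total RNA of striatum gave 5 libraries per group, with values in FPKM, fragments scaled to transcript length and library size. Whether libraries stem from separate animals is not stated. The p-values thus set the group difference against the spread between these libraries, which may be partly technical.

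Kcnh channels form 3 subfamilies. EAG channels (Kcnh1, Kcnh5) open slowly from negative potentials, ERG channels (Kcnh2, Kcnh7) recover from inactivation during repolarisation and so carry current late in a spike, and ELK channels (Kcnh3, Kcnh4) open at subthreshold voltages. Kcnq subunits carry the M-current, a slow potassium current that restrains repetitive firing and that muscarinic receptors shut off by depleting a membrane phosphoinositide. In spiny projection neurons, the output neurons of the striatum, the M-current is known to limit excitability near the firing threshold.

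The coding stretch of the pore filter is shown so that Kcnh1 and Kcnh4, which fell, can be read beside Kcnh2, Kcnh5 and Kcnh7, which did not pass the test, and no stretch is shown for Kcnh3. It was read from GENCODE M21 transcripts (GRCm38) for 5 Kcnh genes, 5′ to 3′ on the coding strand, and spans 45 bases within a coding exon of each gene. The capitals mark the codons of the filter signature, GGNTTNGGN. The stretches lie at chr1:192337742-192337786 (plus strand, exon 7) for Kcnh1, chr12:75087448-75087492 (minus strand, exon 7) for Kcnh5, chr5:24325537-24325581 (minus strand, exon 7) for Kcnh2, chr2:62777325-62777369 (minus strand, exon 8) for Kcnh7 and chr11:100750275-100750319 (minus strand, exon 8) for Kcnh4.
Kcnh1: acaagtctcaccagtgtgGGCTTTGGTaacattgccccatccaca
Kcnh5: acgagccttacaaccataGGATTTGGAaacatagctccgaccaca
Kcnh2: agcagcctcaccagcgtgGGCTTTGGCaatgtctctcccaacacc
Kcnh7: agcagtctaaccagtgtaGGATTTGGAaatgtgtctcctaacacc
Kcnh4: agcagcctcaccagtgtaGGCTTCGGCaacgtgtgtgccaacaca
The Kcnh4 stretch shared 37 of 45 bases with Kcnh2, 35 with Kcnh7, 30 with Kcnh1 and 28 with Kcnh5. The Kcnh1 stretch shared 31 of 45 bases with Kcnh5, 31 with Kcnh2 and 30 with Kcnh7. A link between these bases and the transcript level was not tested.

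R6/2 striatum had less transcript of 5 of the 8 channel genes. Both ELK genes fell steeply, both M-type genes fell by a smaller amount, and the EAG gene Kcnh1 fell least. The other EAG gene, Kcnh5, and the ERG genes Kcnh2 and Kcnh7 did not pass the test. All 8 genes had a mean over all 10 libraries of 1 FPKM or more, the minimum for testing, and were tested with limma on log2(FPKM + 1), R6/2 minus control, adjusted over all 15905 genes tested. At an adjusted p under 0.05, 5 of the 8 were lower and 0 higher, beside 9.11% lower and 5.00% higher of all genes tested (14.1% in either direction). Kcnh4 passed the minimum through its control values, and without it 4 of 7 were lower, the same 4 with all R6/2 values under the control range. The median log2 change was -0.59 over the 8 genes and 0.00 over all genes tested. In the 5 genes called lower, all R6/2 values lay under the control range, a pattern seen in 8.58% of all genes tested, and 0 of the 8 had all R6/2 values above it, as 4.50% of all genes did (13.1% in either direction).

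**Figure D1:**
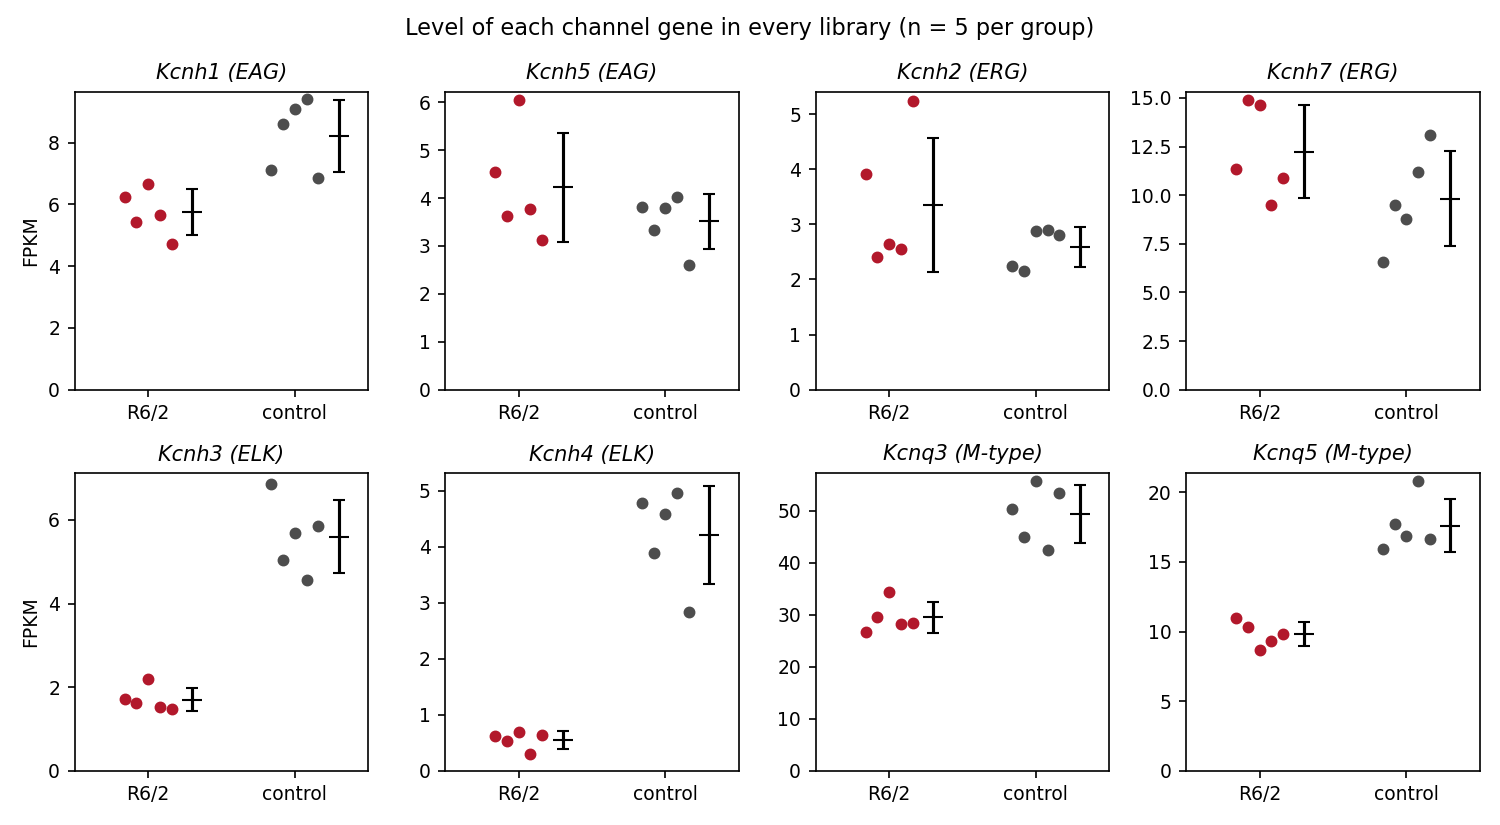
FPKM of each channel gene in every library (points, y axis from 0) for R6/2 (red, left) and control (grey, right), with the mean and SD beside them (n = 5 per group). The R6/2 points lie under all control points for Kcnh1, Kcnh3, Kcnh4, Kcnq3 and Kcnq5, and overlap them for Kcnh2, Kcnh5 and Kcnh7.

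The tissue label was checked first. All 12 markers of spiny neurons were detected, and their summed level was 267 to 448 FPKM in R6/2 and 1952 to 2472 FPKM in control libraries. All 12 fell in R6/2 (median log2 change -2.33). In tissue RNA, fewer cells of a type and less RNA per cell cannot be told apart. The summed level of 6 cortical excitatory neuron markers was 53.5 to 97.0 FPKM in R6/2 and 23.3 to 51.3 FPKM in control libraries, without overlap. Of the 5 cortical markers tested, 2 rose, and Emx1 was listed at 0 in 1 R6/2 and 2 control libraries. Oligodendrocyte markers summed to 652 to 1002 FPKM in R6/2 and 1441 to 1611 FPKM in control libraries, with 3 of 5 lower. Astrocyte markers summed to 196 to 286 FPKM in R6/2 and 392 to 472 FPKM in control libraries, with 2 of 5 lower. Most of that sum was 1 marker, at a mean of 212 FPKM in R6/2 and 392 FPKM in controls. Interneuron markers summed to 213 to 247 FPKM in R6/2 and 326 to 585 FPKM in control libraries, with 5 of 6 tested lower. This sum too was mostly 1 marker, at a mean of 207 FPKM in R6/2 and 377 FPKM in controls. Microglia markers had 1 of 4 tested lower and endothelial markers 0 of 4. The part of these shifts in the changes of the channel genes was not tested, except for the cortical markers, whose score was put into the model of each gene.

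Kcnh4, an ELK channel gene, had the largest change of the 8. It was at 0.622, 0.529, 0.694, 0.291 and 0.633 FPKM in R6/2 1 to 5, against 4.78, 3.88, 4.59, 4.96 and 2.83 FPKM in Controls 1 to 5. All R6/2 libraries were under 1 FPKM and all controls above it. The R6/2 mean, 0.554 ± 0.158 FPKM, was 13.2% of the control mean, 4.21 ± 0.871 FPKM (SD, n = 5). In limma this was a log2 change of -1.73 with SE 0.15 and adjusted p = 8.88e-05. At such low values its size depends on the pseudocount: it was -2.74 with 0.1 FPKM added (limma adjusted p = 9.83e-05) and -0.72 with 5 FPKM added (limma adjusted p = 0.000179). Kcnh4 (ENSMUSG00000035355.15) lies on GRCm38 chromosome 11 from 100740376 to 100759942 on the minus strand, and its exons overlap no other annotated gene.

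Kcnh3 encodes an ELK channel of forebrain neurons, whose loss makes mouse hippocampal neurons more excitable. It was at 1.71, 1.61, 2.18, 1.52 and 1.49 FPKM in R6/2 1 to 5, against 6.85, 5.04, 5.69, 4.55 and 5.85 FPKM in Controls 1 to 5. The highest R6/2 library, R6/2 3, was at less than any control. The R6/2 mean, 1.70 ± 0.282 FPKM, was 30.4% of the control mean, 5.60 ± 0.873 FPKM (SD, n = 5). In limma this was a log2 change of -1.28 with SE 0.12 and adjusted p = 0.000106. With 5 FPKM added the log2 change was -0.66 (limma adjusted p = 0.000203). Kcnh3 lies on chromosome 15 from 99224861 to 99242817 on the plus strand, where its exons share 1 base with those of Mcrs1 on the other strand.

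Both M-type genes were above the Kcnh genes in controls, and Kcnq3 was the most abundant of the 8 in both groups. Kcnq3, which encodes a subunit that assembles with other Kcnq subunits into M-channels, was at 26.8, 29.6, 34.4, 28.2 and 28.5 FPKM in R6/2 1 to 5, against 50.3, 45.0, 55.8, 42.4 and 53.5 FPKM in Controls 1 to 5. The groups did not overlap, and R6/2 3 was again the highest of its group. The R6/2 mean, 29.5 ± 2.94 FPKM, was 59.7% of the control mean, 49.4 ± 5.64 FPKM (SD, n = 5). In limma this was a log2 change of -0.72 with SE 0.10 and adjusted p = 0.00103. Kcnq3 spans 300256 bases of chromosome 15, from 65986387 to 66286642 on the minus strand. With the cortical score in the model its log2 change was -0.70 (limma adjusted p = 0.0541), which did not pass.

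Kcnq5 encodes another M-channel subunit. It was at 11.0, 10.3, 8.69, 9.33 and 9.84 FPKM in R6/2 1 to 5, against 15.9, 17.7, 16.9, 20.8 and 16.7 FPKM in Controls 1 to 5. The groups were well apart, and R6/2 3 was here the lowest of its group. The R6/2 mean, 9.83 ± 0.875 FPKM, was 55.8% of the control mean, 17.6 ± 1.90 FPKM (SD, n = 5). In limma this was a log2 change of -0.78 with SE 0.09 and adjusted p = 0.000405. Kcnq5 spans 563540 bases of chromosome 1, from 21398403 to 21961942 on the minus strand. Of its 7689 exonic bases 237 overlap the long noncoding RNA gene Gm26580 on the other strand, which was at 5.72 ± 1.72 FPKM in R6/2 and 14.4 ± 2.92 FPKM in controls (SD, n = 5). Whether strand was used in counting is not stated, so reads over the shared bases may have been counted for either gene. Their part in the change of Kcnq5 was not tested.

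Kcnh1, an EAG channel gene of brain, was at 6.24, 5.42, 6.67, 5.66 and 4.73 FPKM in R6/2 1 to 5, against 7.12, 8.61, 9.09, 9.40 and 6.86 FPKM in Controls 1 to 5. The groups did not overlap, but R6/2 3 and Control 5 lay close to each other. The R6/2 mean, 5.74 ± 0.748 FPKM, was 69.9% of the control mean, 8.22 ± 1.16 FPKM (SD, n = 5). In limma this was a log2 change of -0.45 with SE 0.11 and adjusted p = 0.0266. The call was lost without R6/2 2 (limma adjusted p = 0.0606), R6/2 4 (0.0541), R6/2 5 (0.0549), Control 2 (0.0607), Control 3 (0.067) or Control 4 (0.0618). It was also lost after rescaling of protein-coding genes (log2 change -0.35, limma adjusted p = 0.069) and with the cortical score in the model (log2 change -0.55, limma adjusted p = 0.162). Kcnh1 spans chromosome 1 from 192190774 to 192510159 on the plus strand, and its exons overlap no other gene.

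Kcnh5, the second EAG channel gene, was at 4.55, 3.62, 6.04, 3.77 and 3.12 FPKM in R6/2 1 to 5, against 3.82, 3.33, 3.79, 4.03 and 2.60 FPKM in Controls 1 to 5. The groups overlapped, with R6/2 3 and R6/2 1 above all controls. The means were 4.22 ± 1.14 FPKM in R6/2 and 3.51 ± 0.569 FPKM in controls (SD, n = 5). The log2 change was 0.19, with a 95% interval of -0.16 to 0.54 (limma adjusted p = 0.484). Kcnh5 spans chromosome 12 from 74897220 to 75177332 on the minus strand.

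Kcnh2, the ERG gene best known from cardiac repolarisation, was at 3.92, 2.41, 2.64, 2.56 and 5.25 FPKM in R6/2 1 to 5, against 2.24, 2.16, 2.89, 2.89 and 2.80 FPKM in Controls 1 to 5. R6/2 1 and R6/2 5 were above every control, and the other 3 R6/2 libraries lay within the control range. The means were 3.35 ± 1.22 FPKM in R6/2 and 2.60 ± 0.362 FPKM in controls (SD, n = 5, log2 change 0.24, 95% interval -0.16 to 0.64, limma adjusted p = 0.436). Without R6/2 5 the log2 change was 0.10 (limma adjusted p = 0.698). Kcnh2 spans chromosome 5 from 24319589 to 24351604 on the minus strand.

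Kcnh7, an ERG gene expressed in neurons, had the highest mean of the Kcnh genes in both groups. In Control 1 it was under Kcnh1 and Kcnh3, and in Control 3 under Kcnh1. Kcnh7 was at 11.4, 14.9, 14.6, 9.47 and 10.9 FPKM in R6/2 1 to 5, against 6.56, 9.49, 8.80, 11.2 and 13.1 FPKM in Controls 1 to 5. R6/2 2 and R6/2 3 were above all controls, and the other R6/2 libraries were within the control range. The means were 12.2 ± 2.40 FPKM in R6/2 and 9.82 ± 2.46 FPKM in controls (SD, n = 5, log2 change 0.30, 95% interval -0.10 to 0.71, limma adjusted p = 0.32). With the cortical score in the model the sign turned (log2 change -0.17, limma adjusted p = 0.763). Kcnh7 spans chromosome 2 from 62693414 to 63184287 on the minus strand. Of its 15226 exonic bases 696 overlap Gca on the other strand, which was at 16.7 ± 3.86 FPKM in R6/2 and 13.0 ± 2.64 FPKM in controls (SD, n = 5). Reads over these bases may likewise have been counted for either gene.

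**Figure D2:**
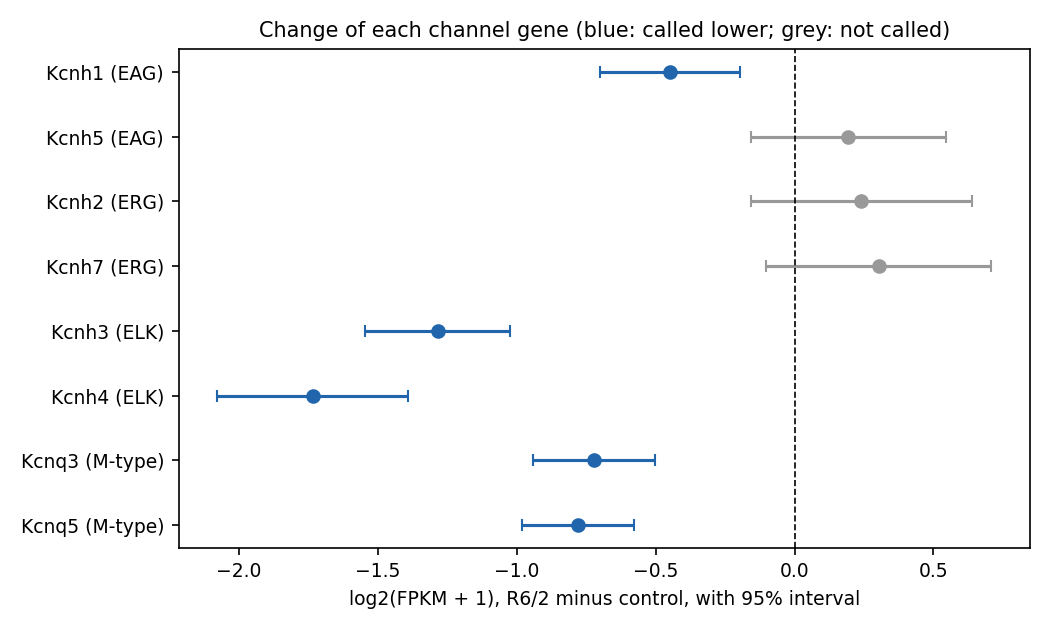
Change of each gene in log2(FPKM + 1), R6/2 minus control, with its 95% interval, where the dashed line is the median of all 15905 genes tested. The intervals of Kcnh3 and Kcnh4 lie lowest, those of Kcnq3, Kcnq5 and Kcnh1 (blue) also stay under 0, and those of Kcnh5, Kcnh2 and Kcnh7 (grey) cross it.

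The cortical score, the mean of the centred log2(FPKM + 1) of the 6 cortical markers, was 0.175, 0.509, 0.826, 0.0693 and 0.197 in R6/2 1 to 5, against -0.671, -0.0481, -0.832, -0.0206 and -0.205 in Controls 1 to 5. The groups did not overlap, so the score and the genotype are partly confounded in any model that holds both. R6/2 2 and R6/2 3, the R6/2 libraries of highest score, had the most Kcnh7, and Controls 1 and 3, of lowest score, had the least. R6/2 1, 4 and 5, at 11.4, 9.47 and 10.9 FPKM of Kcnh7, did not follow this order against Control 5, which was lower in score but at 13.1 FPKM. R6/2 3 was also highest of its group in Kcnh1, Kcnh3, Kcnh4, Kcnh5 and Kcnq3. With the score in the model, Kcnh3 (log2 change -1.24, limma adjusted p = 0.012), Kcnh4 (-1.72, 0.00958) and Kcnq5 (-0.83, 0.0199) were called lower. In that model 2.57% of all genes tested were lower and 0.472% higher.

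**Figure D3:**
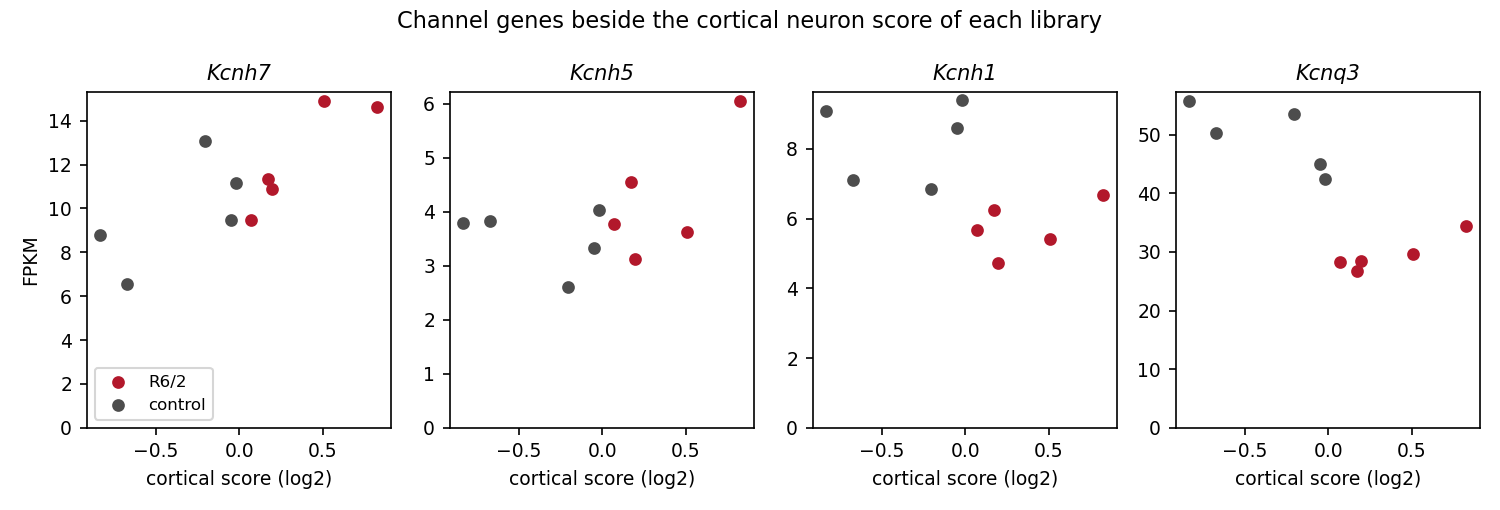
FPKM of Kcnh7, Kcnh5, Kcnh1 and Kcnq3 (y axes from 0) against the cortical score of each library (log2 units) for 5 R6/2 (red) and 5 control (grey) libraries. Kcnh7 is highest in the R6/2 libraries with the highest score, and the R6/2 points of Kcnh1 and Kcnq3 lie under all controls.

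In R6/2 striatum the order of the mean levels, in FPKM and so per length, was Kcnq3, Kcnh7, Kcnq5, Kcnh1, Kcnh5, Kcnh2, Kcnh3 and Kcnh4. In controls it was Kcnq3, Kcnq5, Kcnh7, Kcnh1, Kcnh3, Kcnh4, Kcnh5 and Kcnh2. The libraries' ranges of neighbours in that order overlapped for Kcnh7 and Kcnq5, Kcnh1 and Kcnh5, and Kcnh5 and Kcnh2 in R6/2. In controls they overlapped for Kcnh7 and Kcnh1, Kcnh3 and Kcnh4, Kcnh4 and Kcnh5, and Kcnh5 and Kcnh2. Both ELK genes thus stood last in R6/2, and above Kcnh5 and Kcnh2 in controls.

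The 6 Kcnh genes summed to 27.8 ± 3.53 FPKM in R6/2 and 34.0 ± 2.17 FPKM in controls (SD, n = 5), with ranges of 23.3 to 32.9 FPKM in R6/2 and 31.4 to 37.0 FPKM in controls. Kcnh7 made up 40.0 to 52.3% of that sum in R6/2 and 20.9 to 38.4% in controls. Kcnh3 made up 5.67 to 6.65% in R6/2 and 12.3 to 21.8% in controls, and Kcnh4 1.25 to 2.43% in R6/2 and 8.33 to 15.2% in controls. The share of Kcnh1 overlapped between groups, at 18.1 to 24.3% in R6/2 and 20.2 to 26.5% in controls. That of Kcnh2 also overlapped, at 8.03 to 20.1% in R6/2 and 6.65 to 8.28% in controls. So did that of Kcnh5, at 11.9 to 18.4% in R6/2 and 7.65 to 12.2% in controls. A share also rises when other genes of the sum fall, and the FPKM of Kcnh7 itself overlapped between groups. Kcnq3 and Kcnq5 summed to 39.3 ± 2.32 FPKM in R6/2 and 67.0 ± 4.36 FPKM in controls (SD, n = 5). Kcnq3 held 74.9 ± 3.21% of that sum in R6/2 and 73.6 ± 4.13% in controls, so its make-up differed by less than the spread between libraries.

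**Figure D4:**
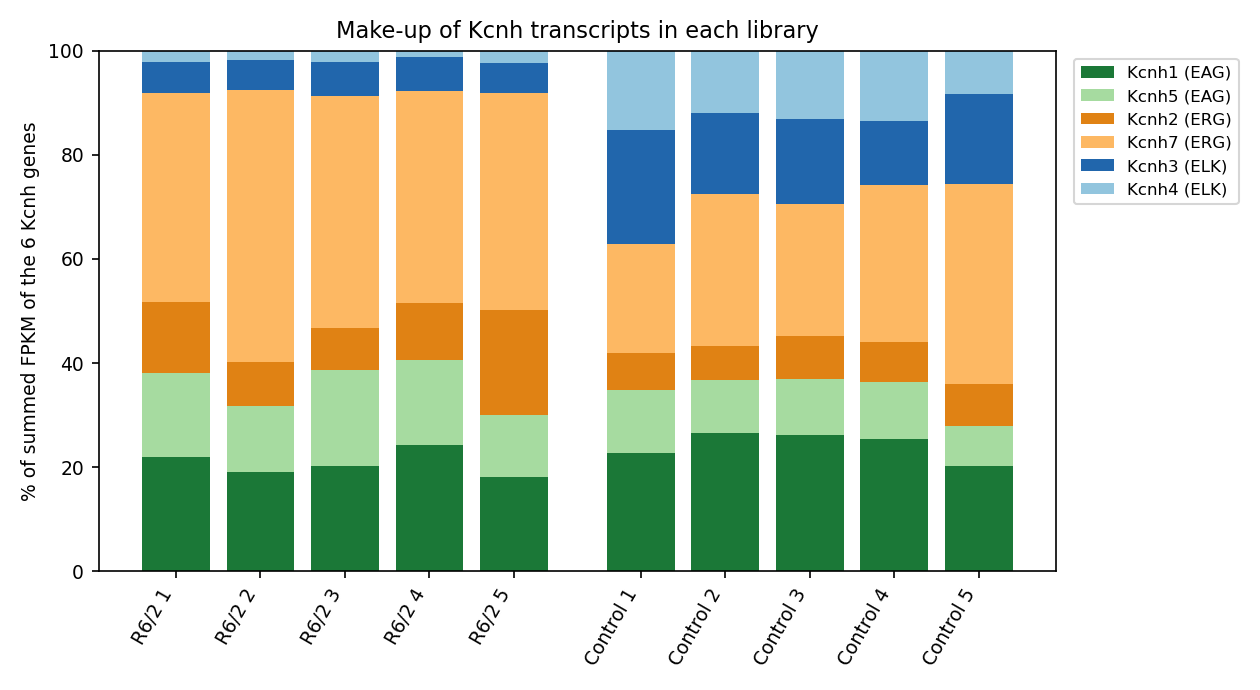
Each bar is a library (R6/2 left, control right) and gives the percentage of the summed FPKM of the 6 Kcnh genes that each gene holds. The blue ELK shares are narrow in all R6/2 libraries, where Kcnh4 holds at most 2.43%, and the Kcnh7 share runs from 40.0 to 52.3% there.

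The genes of a subfamily were compared within each library, as the difference of their log2(FPKM + 1), in 4 pairs chosen after the values were seen. Kcnh1 minus Kcnh5 was 0.39 ± 0.15 in R6/2 and 1.03 ± 0.16 in controls (SD, n = 5), without overlap. The EAG genes thus changed by different amounts, with a difference of -0.64 (SE 0.10, exact permutation test, two-sided, p = 0.00794, adjusted over 4 pairs 0.0317), lower in 5 of 5 R6/2 libraries than in any control. Without R6/2 3 that difference was -0.58 (exact permutation test, adjusted p = 0.0635). Kcnh4 minus Kcnh3 was -0.80 ± 0.14 in R6/2 and -0.35 ± 0.34 in controls (SD, n = 5), and Control 5 lay among the R6/2 values. The difference for the ELK genes was -0.45 (SE 0.16, exact permutation test, p = 0.0317, adjusted p = 0.0635) and did not pass. It passed without Control 5 (-0.57, exact permutation test, adjusted p = 0.0159) and with 0.1 FPKM added (-1.08, exact permutation test, adjusted p = 0.0159), and was -0.07 with 5 FPKM added (exact permutation test, adjusted p = 0.722). Control 5 had a total of 2309123 FPKM over all genes, against 1545169 to 1823327 FPKM in the other libraries. Its total over protein-coding genes outside the mitochondrial genome, 219426 FPKM, was close to that of Control 1, 218703 FPKM. The part of this in the ELK difference was not tested.

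For the ERG genes, Kcnh2 minus Kcnh7 was -1.63 ± 0.54 in R6/2 and -1.56 ± 0.28 in controls, a difference of -0.06 (SD, n = 5, SE 0.27, exact permutation test, p = 0.833). For the M-type genes, Kcnq5 minus Kcnq3 was -1.49 ± 0.24 in R6/2 and -1.44 ± 0.29 in controls, a difference of -0.06 (SD, n = 5, SE 0.17, exact permutation test, p = 0.73). Neither pair showed a difference in change beyond its spread, and for the ERG pair that spread is wide.

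**Figure D5:**
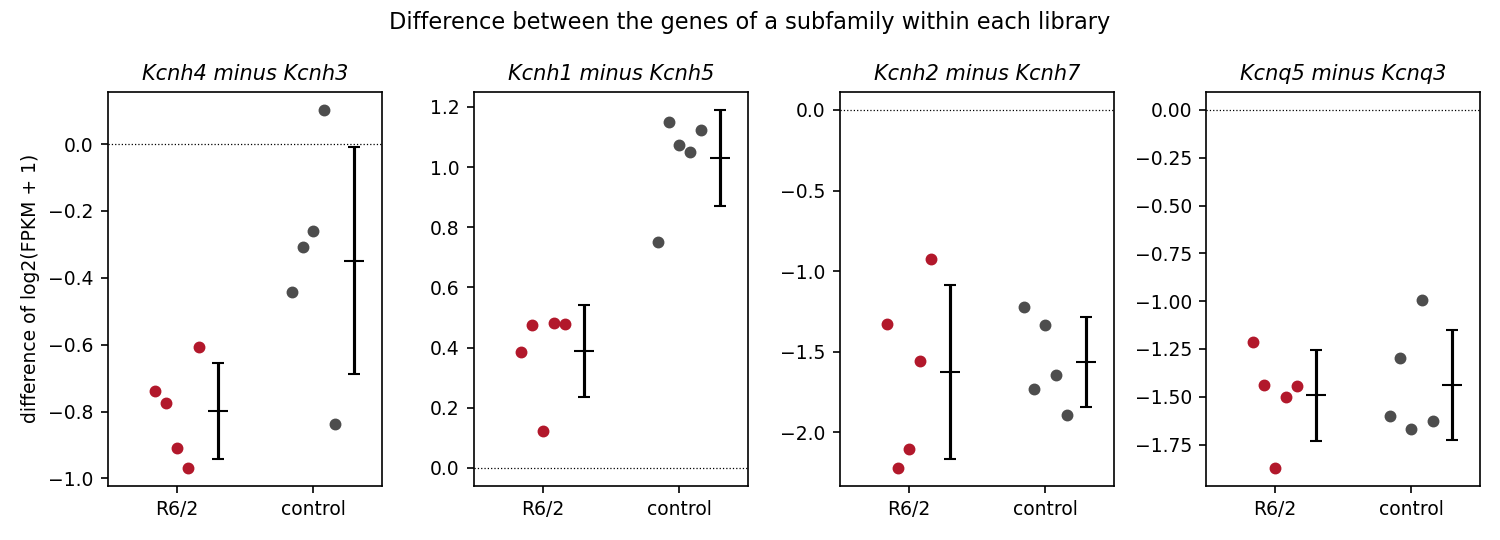
Difference of log2(FPKM + 1) between the genes of a subfamily in every library (points), with mean and SD, for R6/2 (red, left) and control (grey, right), n = 5 per group. The R6/2 points of Kcnh1 minus Kcnh5 lie under all control points, and the other 3 pairs overlap.

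The promoter windows of 3 genes called lower are shown beside that of Kcnh7, which did not pass. Whether these genes share control was not tested. They run from 250 bases before to 50 after the start in RefSeq (GRCm38.p6), 5′ to 3′ on the gene's strand, and 6 of the 8 genes matched the table by symbol. Capitals mark GGGCGG, TGACGTCA and CACGTG on either strand, which did not overlap. The windows are chr11:100759729-100760028 (minus strand) for Kcnh4, chr1:192190527-192190826 (plus strand) for Kcnh1, chr1:21961893-21962192 (minus strand) for Kcnq5, which has a further start in the table, and chr2:63184238-63184537 (minus strand) for Kcnh7.
Kcnh4: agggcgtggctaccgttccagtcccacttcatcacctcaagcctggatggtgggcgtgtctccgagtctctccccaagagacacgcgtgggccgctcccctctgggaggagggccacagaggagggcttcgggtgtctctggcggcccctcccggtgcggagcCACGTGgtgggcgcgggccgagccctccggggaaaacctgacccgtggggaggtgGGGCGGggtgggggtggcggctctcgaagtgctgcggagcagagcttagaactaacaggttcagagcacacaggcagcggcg
Kcnh1: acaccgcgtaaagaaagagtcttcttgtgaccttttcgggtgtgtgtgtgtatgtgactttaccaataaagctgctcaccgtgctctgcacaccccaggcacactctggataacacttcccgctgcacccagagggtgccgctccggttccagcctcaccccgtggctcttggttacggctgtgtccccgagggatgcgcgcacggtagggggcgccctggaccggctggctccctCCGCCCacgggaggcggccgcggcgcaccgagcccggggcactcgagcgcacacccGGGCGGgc
Kcnq5: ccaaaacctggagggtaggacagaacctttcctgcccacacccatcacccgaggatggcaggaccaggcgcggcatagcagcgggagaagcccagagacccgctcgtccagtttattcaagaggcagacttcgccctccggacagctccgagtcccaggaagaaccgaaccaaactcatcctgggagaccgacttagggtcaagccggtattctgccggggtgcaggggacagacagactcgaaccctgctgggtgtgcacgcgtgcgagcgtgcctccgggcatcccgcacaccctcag
Kcnh7: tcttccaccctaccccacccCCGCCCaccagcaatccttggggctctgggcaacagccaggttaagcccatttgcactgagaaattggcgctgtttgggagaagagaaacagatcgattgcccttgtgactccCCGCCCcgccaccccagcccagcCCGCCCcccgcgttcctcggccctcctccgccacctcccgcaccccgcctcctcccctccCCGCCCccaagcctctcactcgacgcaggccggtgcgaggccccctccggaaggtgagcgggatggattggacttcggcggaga
GGGCGG, the core of a GC box, occurred 1 time in the Kcnh4 window, 2 times in that of Kcnh1, 0 times in that of Kcnq5 and 4 times in that of Kcnh7, and was present in 35.7% of the 32851 promoter windows of the table. CACGTG, an E-box, occurred 1 time in the Kcnh4 window and was present in 7.15% of all windows. TGACGTCA, the cyclic AMP response element, was in none of the 4 windows and in 1.79% of all. The GC content was 68.7% for Kcnh4, 66.0% for Kcnh1, 62.7% for Kcnq5 and 67.7% for Kcnh7, against a median of 52.7% over all windows. The further Kcnq5 window, at chr1:21962601-21962900, had 46.0% GC and none of the 3 motifs. The windows of Kcnh2 (3 GGGCGG, 74.3% GC) and Kcnh5 (1 GGGCGG, 65.3% GC), which did not pass the test, are not printed. That of Kcnh2, at chr5:24329542-24329841 (minus strand), belongs to a start inside the gene, whose 5′ end is at 24351604.

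The other Kcnh genes averaged under 1 FPKM. Kcnh6, an ERG gene, was at 0.0986 to 0.619 FPKM in R6/2 and 0.0520 to 0.515 FPKM in control libraries. Kcnh8, an ELK gene, was listed at 0 in R6/2 2, at 0.0943 to 0.451 FPKM in the other R6/2 libraries and at 0.113 to 0.215 FPKM in controls. Neither passed the filter. The ancillary Kcne subunits, 5 of which are in the table, were likewise under it, and Kcne1 and Kcne3 were listed at 0 in all libraries.

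Of 18 genes that act on the M-current, 7 fell and 0 rose, beside 9.11% lower and 5.00% higher of all genes tested, with a median log2 change of -0.34. Akap5, which encodes a scaffold that holds kinases at M-channels, was at 21.6 ± 3.36 FPKM in R6/2 and 54.1 ± 5.13 FPKM in controls (SD, n = 5), a log2 change of -1.29 with a limma adjusted p of 8.08e-05. Plcb1, a phospholipase that breaks down the phosphoinositide M-channels need, was at 49.2 ± 8.62 FPKM in R6/2 and 102.6 ± 8.18 FPKM in controls (SD, n = 5), a log2 change of -1.06 with a limma adjusted p of 0.000468. Nedd4l, a ubiquitin ligase that lowers Kcnq surface levels, fell too, with a log2 change of -0.71 and a limma adjusted p of 0.00149. Of 8 tested partners of EAG and ERG channels, 3 fell and 0 rose (median -0.26). Among them were Calm2 (log2 change -0.56, limma adjusted p = 0.0429) and Rnf207 (log2 change -1.15, limma adjusted p = 0.0218), a ubiquitin ligase known to act on the KCNH2 channel in human cells.

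Among the 52 other tested genes whose symbol begins with Kcn, which include auxiliary subunits and a few genes that encode no channel, 19 fell and 4 rose (median log2 change -0.18), beside the same 9.11% lower and 5.00% higher of all genes tested. The 4 with the smallest p were Kcnab1 (log2 change -1.52), an auxiliary subunit gene, Kcnip2 (-1.91), an auxiliary gene of A-type channels, Kcnj4 (-1.20), an inward rectifier gene, and Kcnd2 (-0.89), an A-type pore gene. Kcnh4 thus had a larger change than 3 of these 4 genes and Kcnq3 and Kcnq5 a smaller one than all 4, on the log2(FPKM + 1) scale and with no test between them.

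For each gene called, the tested genes with the closest profile over the 10 libraries were sought by the root mean square difference of log2(FPKM + 1) minus the control mean. For Kcnh4 these were Inf2 (0.149) and Lingo3 (0.16), and for Kcnh3 the choline transporter gene Slc5a7 (0.124) and Ppp4r4 (0.128). For Kcnq3 they were Gabra4, a GABA receptor subunit gene (0.052), and Map6d1 (0.0892), for Kcnq5 Ptk2b (0.0932) and Mmp17 (0.118), and for Kcnh1 Lmtk2 (0.0878) and Sdk2 (0.105). These distances describe the 10 libraries and share the difference between the groups.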

How the data were processed

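RNA of 5 R6/2 and 5 control striatum samples was amplified with NuGEN Ovation RNA-Seq v2, turned into Nextera libraries and sequenced on an Illumina HiSeq, per the labels' protocols. The authors deposited FPKM values, 1 column per library. STAR 2.4.0, Cufflinks and Cuffdiff with GRCm38 were used, per the submitters' processing notes, and the sources used here do not give their roles, the annotation, the strand setting or any scaling. The table holds no counts, and 3728 values lie above 0 but below 1e-06, so the depth is unknown and counting error could not be estimated.

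Symbols came from GENCODE M21 by stable ID (47220 of 47632 rows). Genes whose mean over all libraries reached 1 FPKM entered limma 3.58.1 in R 4.3.3 (mean-variance trend, empirical Bayes, two-sided, Benjamini-Hochberg, threshold 0.05) on log2(FPKM + 1), a scale that understates changes of low genes, and the model was tested on simulated data. Subfamily pairs were compared with exact permutation tests over 252 splits, whose smallest two-sided p is 0.00794. The genes named are the 8 channel genes, the other family genes, up to 4 called genes of each list by smallest p and the 2 closest profiles per called gene. Some genes covered by this rule are not reported here. The genes, lists and rules were chosen with earlier results of these data known. Replicate numbers did not pair the libraries. No pair of libraries held identical values.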

Additional observations from a re-analysis of the deposited data

How the results depend on the processing

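Over the 10 fits that each leave out 1 library, 4 to 5 of the 8 channel genes were called lower and 0 higher. Of all genes tested, 1144 to 1493 (7.23 to 9.41%) were lower and 532 to 871 (3.36 to 5.49%) higher. The member lost in these fits was Kcnh1. The highest limma adjusted p over these fits was 0.000653 for Kcnh3, 0.000616 for Kcnh4, 0.00408 for Kcnq3 and 0.00174 for Kcnq5. With a minimum mean of 5 FPKM, 3 genes were called lower of the 4 still tested (Kcnh1, Kcnh7, Kcnq3 and Kcnq5), beside 12.6% lower of the 9015 genes tested, because Kcnh2, Kcnh3, Kcnh4 and Kcnh5 fall under it. With the cortical score in the model 3 of the 8 were called lower, beside 409 lower (2.57%) and 75 higher (0.472%) of all genes tested. The log2 change of Kcnh7 was -0.17 there, and the cause was not tested. Rescaling to 1 total with protein-coding genes alone tested gave 1644 higher and 1086 lower calls over 11693 genes, of median log2 change 0.11, so 39.8% of calls were lower, against 64.6% in all genes as deposited and 53.5% after quantile normalization. Protein-coding genes alone without rescaling, an alternative chosen after seeing the data, gave 1387 lower and 888 higher calls over 11684 genes (61.0% lower, median log2 change 0.01) and 5 channel genes lower. In another chosen after seeing the data, both controls of lowest cortical score were left out. This gave 758 lower (4.82%) and 281 higher (1.79%) of all genes tested, and 4 channel genes lower.

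The numbers shared by the groups did not pair the libraries: the correlation of same-numbered deviations ran from -0.05 to 0.05, and 1 of 5 libraries matched its own number best. With the replicate block in the model 975 genes were lower (6.13%) and 370 higher (2.33%), and 5 channel genes were lower.

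The difference between Kcnh2 and Kcnh7, which did not pass, ran from -0.237 to 0.0859 over the fits that leave out 1 library, and that between Kcnq5 and Kcnq3 from -0.126 to 0.0542, and was 0.0485 when 5 FPKM were added. The unknown depth limits what can be said of Kcnh4 in R6/2, where every value was under 1 FPKM.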
